A study of Drosophila melanogaster with 21 samples.

Results

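Antisense RNAs, transcripts annotated on the strand opposite to another gene, were selected on their level in fly brain RNA. Every gene of the count table whose symbol starts with asRNA and whose mean over the 21 libraries was at least 1 CPM was taken, where CPM is the count over the total of its library times 1000000. The rule kept 86 of 500 antisense RNAs, in a table of 17612 genes, and used no comparison between groups. At its edge, asRNA:CR43152 lay just inside with a mean of 1.03 CPM and asRNA:CR43683 just outside with 0.954 CPM. For 5 antisense RNAs the mean of the remaining libraries was under 1 CPM once some 1 group was left out, so a high value in that group is part of how they were chosen and is given below as a level, with no test. PolyA-selected RNA was sequenced from dissected brains of male Drosophila melanogaster, 20 brains per replicate, in 7 groups of 3 replicates. Set 1 held control brains and miR-34 mutant brains, each at day 3 and at day 20, and set 2 held control brains at day 3, day 20 and day 50. Controls were the w1118 strain labelled 5905, and mutants carried a deletion of the microRNA gene miR-34 in a w1118 background. No group received a treatment. The mutant was a single strain, so the deletion and any other difference between the mutant and control strains cannot be told apart.

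Antisense RNAs are made from the DNA strand opposite to that of a partner, the sense gene, and overlap it head to head, tail to tail or entirely. Some act on their partner by interfering with its transcription or by pairing with its RNA, and for many no function is known. In flies, natural antisense pairs can also be cut into small interfering RNAs. For nearly all antisense RNAs described here only a CR number is known, so their place is described by the sense gene, whose role is given where it is well established.

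The total count per library was 17932132 to 23109013 in set 1 and 30890607 to 43713430 in set 2. No row for miR-34 was present in the table, and its host transcript lncRNA:CR43459 had 182 to 435 counts in the set 1 control libraries and 15243 to 23664 in the mutant libraries, so it parted the libraries by their labels without showing the loss of the microRNA. The 5 defining markers of neurons summed to 3553 to 6865 CPM over the 21 libraries and those of glia to 990 to 1752 CPM. Markers of photoreceptors (15980 to 49104 CPM) and of fat body (1917 to 4661 CPM) were also plentiful, while those of muscle (48.6 to 137 CPM), hemocytes (103 to 290 CPM) and testis (0.300 to 10.1 CPM) were low. In whole brains, fewer cells of a type and less RNA per cell cannot be told apart. Each replicate is a separate pool of brains, and p-values measure the spread between these pools.

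All 86 antisense RNAs overlapped an exon on the opposite strand in the Ensembl release 115 annotation (build BDGP6.54), by a median of 62.6% of their exon bases, and for 55 of them 50% or more was covered (3.23% at the least, in CR44018, to 100% in 4). They had 380 to 7622 exon bases (median 1376), and 34 had a single exon. They lay on 3R (19), 3L (19), X (18), 2R (14), 2L (10) and chromosome 4 (6). With 102 sense genes in the table they formed 105 pairs, 100 of them with a protein-coding gene. CR44690 and CR45479, both among the 86, overlap each other and are counted in each direction in the tallies over all pairs. The antisense RNA lay inside the span of the sense gene in 35 pairs, the genes overlapped at their 3' ends in 28 and at their 5' ends in 24, and the sense gene lay inside the antisense span in 18. CR44969 had no sense gene in the table.

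Libraries were made with a stranded kit, and the strand setting of the counting is not given in the sources used here, so counts of overlapping genes are uncertain. With strand ignored and ambiguous reads left out, an antisense RNA covered wholly by opposite exons would receive no counts. Of the 4 such antisense RNAs, CR45875, inside the calpain gene CalpB, had a mean of 7.21 CPM, CR43425, inside unc-13, had 5.02 CPM, CR43885 had 3.56 CPM and CR45891 had 1.74 CPM. Each of the 4 had counts in every library, for example 108, 124 and 138 in the set 1 libraries of 3-day controls for CR43425. Another 27 antisense RNAs that were covered wholly stayed below 1 CPM. Reads on the shared bases were not counted separately. For the sense gene they were estimated as its CPM per kb of exon times the length shared. In 10 pairs the whole CPM of the antisense RNA was under 5% of this estimate. The lowest was 1.52% for CR44116 with CG8475, followed by 1.67% for CR43425 with unc-13 and 1.73% for CR44054 with ssp7. The plot of level against opposite cover shows antisense RNAs of high and of low level over the whole range of cover.

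**Figure D1:**
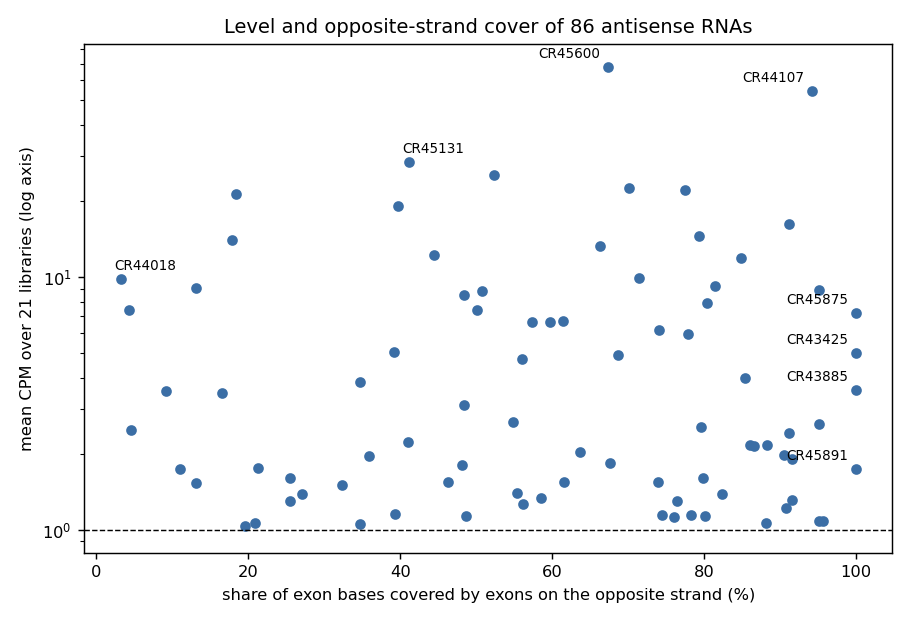
Mean CPM over the 21 libraries (log axis) against the share of exon bases covered by exons on the opposite strand, 1 point per antisense RNA, with the limit of 1 CPM as a dashed line. The 4 antisense RNAs at 100% had 1.74 to 7.21 CPM, and CR44018, at 3.23%, had 9.78 CPM.

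Most antisense RNAs were rare. The median of their mean levels was 2.51 CPM, beside 23.1 CPM for all genes tested in set 1 and 20.3 CPM in set 2. At 10 CPM or more were 14 of them, and 36 lay below 2 CPM. Of 1938 long noncoding RNAs in the table, 159 reached 1 CPM. In every group 62 antisense RNAs had at least 1 CPM, and 24 fell below it in at least 1 group. Per kb of exon they ranged from 0.225 to 144 CPM (median 2.03). Against its sense gene, an antisense RNA had a lower level per kb in 66 pairs and a higher one in 36, with a median of 24.7% of the partner's level over these pairs. In the other 3 pairs, CR43480 with CG17159 and CR43885 with CG46434 and Dred, the sense gene had 0 counts. CG46434 and Dred are annotated over the same span on the same strand. CG17159 lies within the span of CG17162, also on the same strand. If reads shared by such genes were left out of the counting, 0 counts would follow whatever their level. These 3 pairs are therefore not ranked by level.

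The 10 with the highest mean CPM were led by CR45600 (67.7 CPM, 3R, 15136985 to 15140121), on the strand opposite to CG3984. CR44107 (3R, 19149122 to 19149557) had 54.7 CPM on only 380 exon bases, which gave it the highest level per kb, 144 CPM, more than its partner CG5835 per kb. CR45131 (28.5 CPM, 2R, 7631495 to 7635219) overlapped CG43341 and CG43340. CR44137 (25.2 CPM, 3R, 11637177 to 11638553) lay inside Csk, which encodes a kinase that restrains Src family kinases. CR45479 (22.4 CPM, X, 2173480 to 2175855) overlapped the cytochrome P450 gene Cyp4d14. The remaining 5 were CR45161 (22.0 CPM, 3L, 19989706 to 19990739), inside the flight muscle gene fln, CR43259 (21.4 CPM, 3R, 25902846 to 25906766), at the end of CG31089, CR44030 (19.1 CPM, 4, 959675 to 962692), at the end of fuss, a relative of the Ski and Sno corepressors, CR45835 (16.2 CPM, 3L, 7361639 to 7363598), inside Sec63, part of the protein import machinery of the endoplasmic reticulum, and CR45822 (14.6 CPM, 3L, 7355717 to 7356598), inside the gene of the insulator protein CTCF. The partners of 2 of them were hardly present: fln had 2 to 36 counts and CG31089 had 0 to 3 counts in any library. CR45835 passed the test in none of the 7 comparisons between groups, with 13.6 to 20.0 CPM in set 1 and 14.0 to 16.9 CPM in set 2.

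Counts were compared between groups with edgeR's quasi-likelihood test in one fit per set, and a difference was called at a Benjamini-Hochberg adjusted p under 0.05 over all genes tested, 9961 in set 1 and 10525 in set 2. All 86 antisense RNAs were tested in both sets. Log2 fold changes are given with their standard error (SE) where a result turns on them. Of these, 61 were called in at least 1 of the 7 comparisons between groups, which share libraries, and 25 in none. That is 70.9%, beside 79.2% of all genes tested in both sets. The heat map of all 86 shows the mutant columns as the widest departures among set 1.

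**Figure D2:**
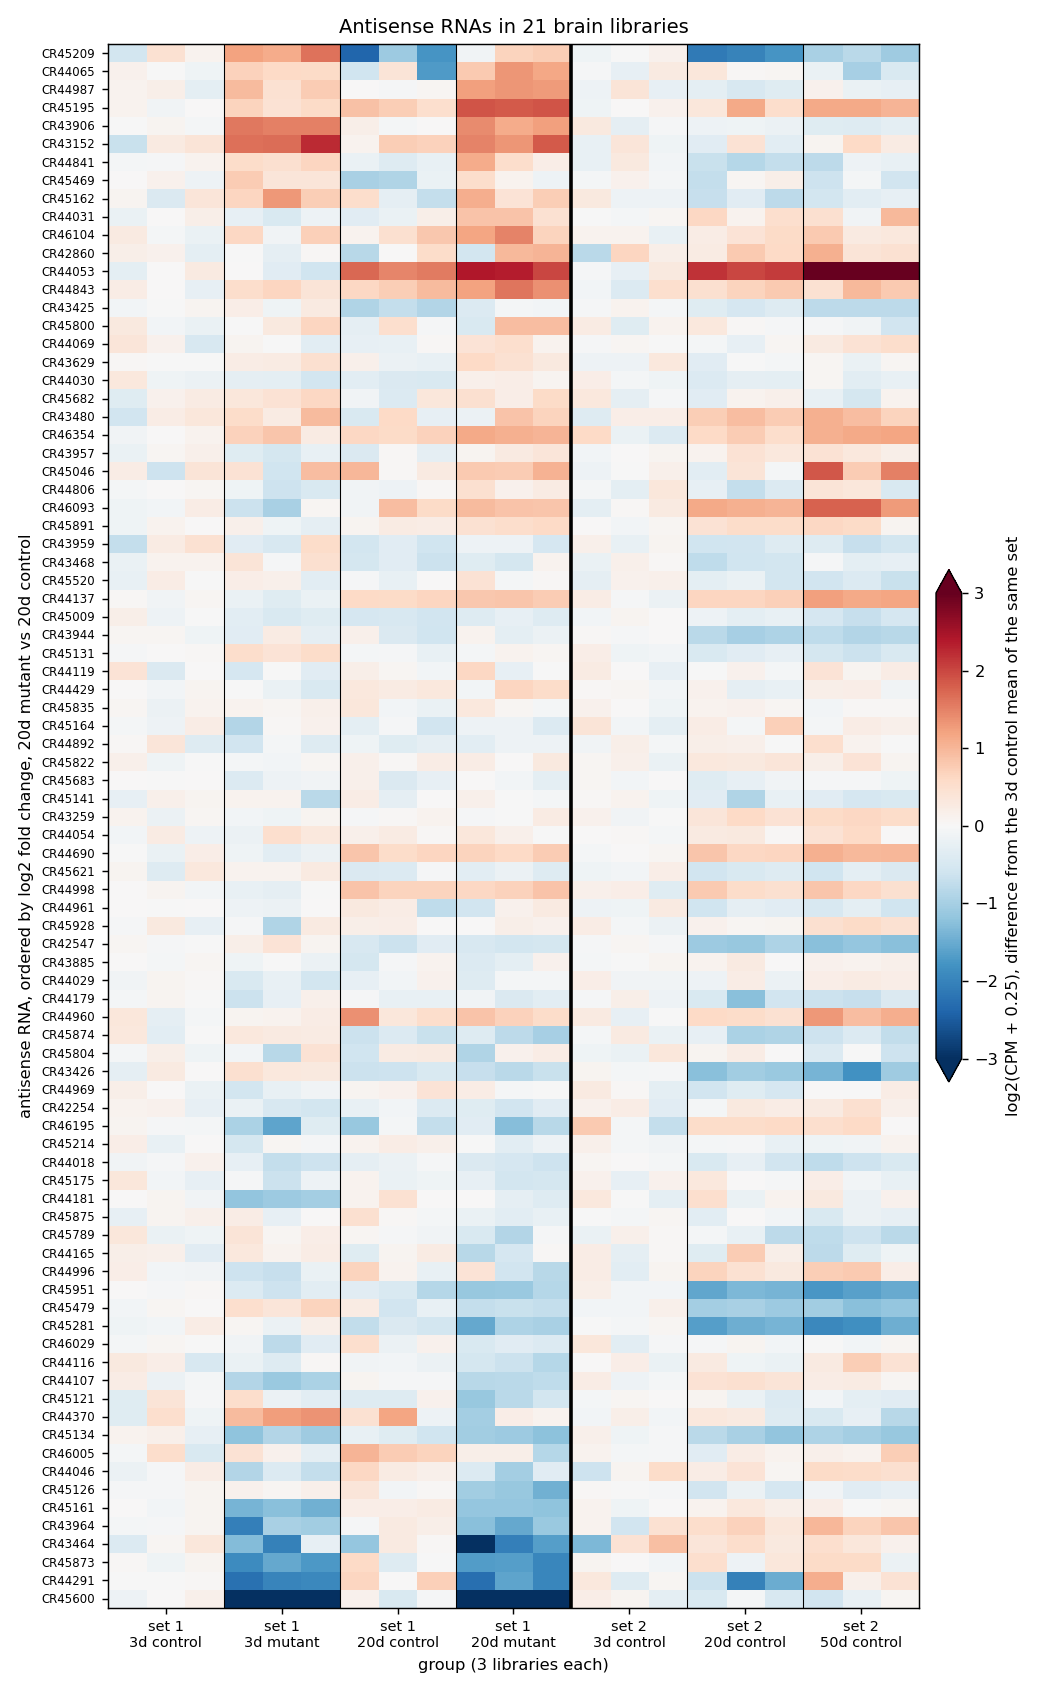
Heat map of the 86 antisense RNAs (rows, ordered by the log2 fold change between 20-day mutants and 20-day controls) in the 21 libraries (columns, 3 per group). Colour gives log2(CPM + 0.25) minus the mean of the 3-day controls of the same set, limited to 3 in either direction. CR45600 at the bottom is lowest in the 6 mutant libraries, and CR44053 is high at day 20 and day 50.

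At day 3, 9 antisense RNAs were higher in the mutant (10.5%, beside 16.5% of all genes tested) and 15 were lower (17.4%, beside 15.0%). Their median log2 fold change was -0.11, and that of all genes was -0.017. At day 20, 16 were higher (18.6%, beside 16.6%) and 17 were lower (19.8%, beside 15.4%), with medians of 0.024 and -0.0066. Read against all genes, the share of antisense RNAs higher at day 3 was smaller and the other 3 shares were slightly larger. At day 20 this did not hold without 20-day control replicate 2. There 15.12% were higher and 15.12% lower, beside 17.05% and 15.94% of all genes. The share higher was also below that of all genes without 20-day mutant replicate 1 (16.28%, beside 16.66%). A fit of only the groups compared gave 12.79% higher, beside 13.73%. The antisense RNAs called higher include CR43152 at both ages and CR44065 at day 20. Both passed the limit of 1 CPM only through the mutant groups. Called changes of at least 2-fold were found in 11 antisense RNAs at day 3 (12.8%, beside 6.06% of all genes) and in 17 at day 20 (19.8%, beside 6.29%). CR43152 is among the 11 and CR44065 among the 17. The median level was 2.51 CPM for antisense RNAs and 23.1 CPM for all genes tested in set 1. These shares are therefore not like for like. Neuron markers moved with genotype at day 3, where their sum was 4683 to 5160 CPM in controls and 6661 to 6865 CPM in mutants and 4 of 5 were called higher. At day 20 the sums were 4391 to 4809 and 4644 to 4774 CPM, and 1 of 5 was called higher. Of 5 fat body markers, 3 were lower in the mutant at both ages, while Lsp2 and apolpp were not called at either. The sums over all 5 were 2386 to 3372 CPM in 3-day controls and 1917 to 2619 CPM in 3-day mutants. At day 20 they overlapped, with 2062 to 3134 CPM in controls and 2174 to 2452 CPM in mutants. The part of either list in these results was not tested.

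**Figure D3:**
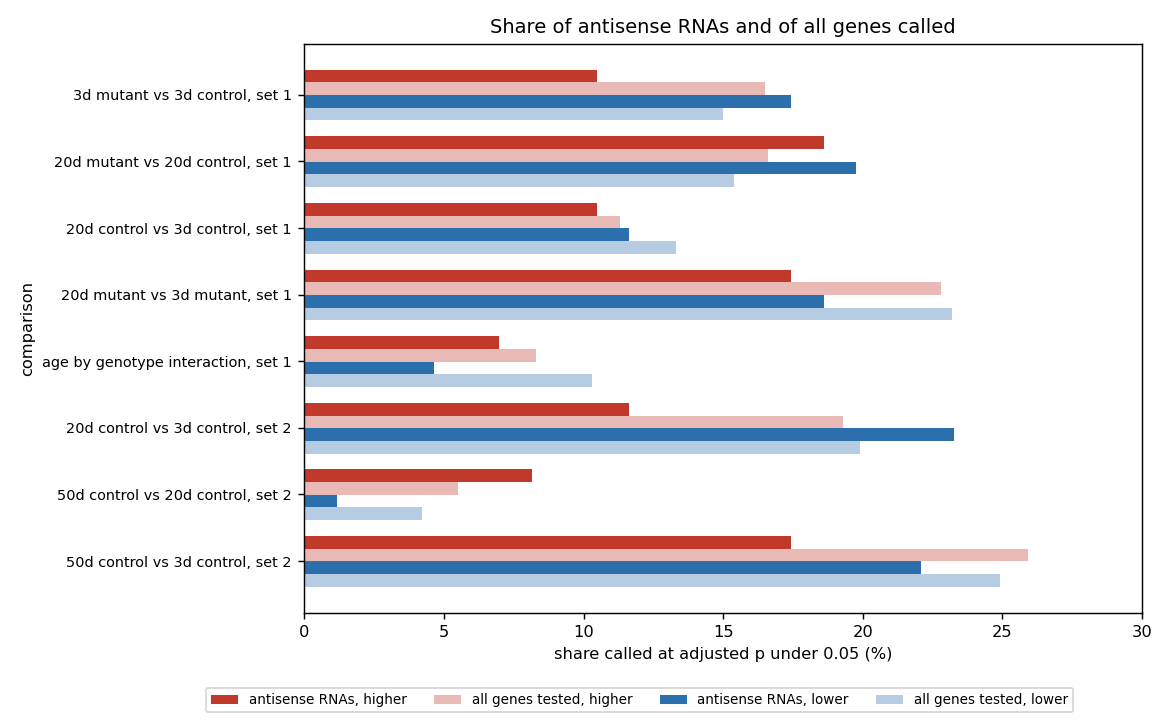
Share of the 86 antisense RNAs (dark bars) and of all genes tested (light bars) called higher (red) or lower (blue) at an adjusted p under 0.05, for the 7 comparisons between groups and the interaction. For 3-day mutants, 10.5% of antisense RNAs and 16.5% of all genes were higher, and for day 50 against 20-day controls 1.16% and 4.21% were lower.

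In mutant brains, 11 antisense RNAs were lower than in controls at both ages, which share no library (12.8%, beside 5.52% of all genes). The deepest fall was that of CR45600. It had 1655, 2016 and 2308 counts in 3-day controls and 83, 84 and 51 in 3-day mutants. Counts at day 20 were 2636, 1623 and 2146 in controls and 63, 31 and 23 in mutants. Every mutant library thus lay below every control library. The log2 fold change was -4.73 (SE 0.26, edgeR adjusted p = 1.3e-06) at day 3 and -5.68 (SE 0.28, edgeR adjusted p = 5.5e-07) at day 20. In set 2 controls it had 2218 to 4723 counts, and no age comparison was called. CR45600 lies 5036 kb from the miR-34 locus on the same chromosome arm, where 5 other antisense RNAs lie nearer (CR44018 at 538 kb, CR45195 at 776 kb, CR44137 at 1536 kb, CR44291 at 1537 kb and CR46354 at 3359 kb). Each of the 5 was called between genotypes at 1 age or both, in either direction, as were 38 of all 86 antisense RNAs. At day 3, 27.9% of the 86 were called, beside 31.4% of all genes, and at day 20 38.4%, beside 32.1%. The share of all genes called at either age was not taken, so neither number is read as a result. On 3R, 9 of 19 antisense RNAs were called at day 3 and 10 at day 20, beside 33.2% of 3R genes at each age. Calls of CR44018, CR44137 and CR45195 at 1 age or both were lost on leaving out single libraries, as given below. Whether calls depend on distance from the miR-34 locus was not tested. CR45600 shares exon bases on its own strand with CG6912 and an annotated Burdock insertion, so its counts are uncertain. Its sense gene CG3984, with 83, 75 and 63 counts in 3-day controls and 126, 219 and 151 in 3-day mutants, was higher in the 3-day mutant by 1.23 log2 units (edgeR adjusted p = 8.7e-04), and at day 20 its log2 fold change of -0.60 (edgeR adjusted p = 0.058) was not called.

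CR44107 had 1308, 1078 and 1224 counts in 3-day controls and 707, 538 and 521 in 3-day mutants. In 20-day brains the counts were 1539, 1312 and 1321 in controls and 783, 792 and 644 in mutants. Genotypes did not overlap at either age, and the log2 fold change was -0.99 (SE 0.093, edgeR adjusted p = 3.8e-06) at day 3 and -0.81 (SE 0.092, edgeR adjusted p = 2.0e-05) at day 20. Its partner CG5835 was not called at day 3 (log2 fold change 0.019, edgeR adjusted p = 0.95) or at day 20 (log2 fold change 0.33, edgeR adjusted p = 0.19). CR45161 had 452, 461 and 536 counts in 3-day controls and 197, 193 and 145 in 3-day mutants. The 20-day values were 675, 618 and 644 in controls and 247, 246 and 188 in mutants, a log2 fold change of -1.39 (SE 0.075, edgeR adjusted p = 2.6e-08) and -1.41 (SE 0.074, edgeR adjusted p = 2.5e-08). The flight muscle gene fln, in which CR45161 lies, had 2 to 6 counts in 3-day controls and 3 to 15 in 3-day mutants and was not called at either age.

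CR44291 (3R, 8562828 to 8563798), which overlaps CG31460 at its end, was close to absent from the mutant libraries. It had 21, 23 and 25 counts in 3-day controls and 1, 2 and 2 in 3-day mutants, at least 7.31-fold lower when 3 counts are allowed in each mutant library (edgeR adjusted p = 9.4e-05). At day 20 it had 47, 26 and 46 in controls and 1, 5 and 2 in mutants with a log2 fold change of -3.73 (SE 0.43, edgeR adjusted p = 2.3e-05), while CG31460 was not called at either age. CR45873 (3L, 9456339 to 9457296) had 26, 25 and 31 counts in 3-day controls and 4, 6 and 4 in 3-day mutants. Counts at day 20 were 53, 22 and 30 in controls and 6, 6 and 3 in mutants. Its log2 fold change was -2.47 (SE 0.39, edgeR adjusted p = 3.1e-04) and -2.67 (SE 0.38, edgeR adjusted p = 1.1e-04), and it shares exon bases on its own strand with CG3552. Its sense gene CG3437 was also lower in the 20-day mutant (log2 fold change -1.03, edgeR adjusted p = 1.3e-04) and was not called at day 3 (log2 fold change -0.39, edgeR adjusted p = 0.059). CR43964 (2R, 18775411 to 18777166) had 24, 27 and 31 counts in 3-day controls against 3, 11 and 9 in 3-day mutants and 32, 38 and 35 in 20-day controls against 10, 7 and 9 in 20-day mutants (log2 fold change -1.74, SE 0.38, edgeR adjusted p = 0.0036, and -1.89, SE 0.37, edgeR adjusted p = 0.0015). CR43964 had 1.44% of the level per kb of CG15093, a gene inside its span, which was lower in the 3-day mutant (log2 fold change -1.10, edgeR adjusted p = 0.018) and not called at day 20 (log2 fold change 0.27, edgeR adjusted p = 0.5).

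CR45134 (2R, 10478043 to 10478795) starts opposite whd, which encodes carnitine palmitoyltransferase, the enzyme that brings fatty acids into mitochondria, and the pair moved apart. CR45134 had 41, 46 and 35 counts in 3-day controls and 16, 19 and 14 in 3-day mutants. In 20-day brains the counts were 41, 34 and 28 in controls and 20, 19 and 13 in mutants, and its log2 fold change was -1.26 (SE 0.25, edgeR adjusted p = 0.0016) and -0.88 (SE 0.25, edgeR adjusted p = 0.014). whd was higher in the mutant by 0.46 log2 units (edgeR adjusted p = 6.1e-04) at day 3 and 0.49 (edgeR adjusted p = 3.1e-04) at day 20. With either 20-day control replicate 1 or 20-day mutant replicate 3 left out, the call of CR45134 at day 20 was lost (edgeR adjusted p up to 0.058). CR44181 (2L, 10695058 to 10698195), which covers the start of CG7300, had 124, 142 and 130 counts in 3-day controls and 60, 58 and 52 in 3-day mutants. At day 20 it had 172, 204 and 149 in controls and 154, 125 and 90 in mutants. The log2 fold change was -1.17 (SE 0.16, edgeR adjusted p = 1.0e-04) at day 3 and -0.42 (edgeR adjusted p = 0.043) at day 20, and the latter call was lost on leaving out any library but 20-day mutant replicate 1 and 20-day control replicate 3 (edgeR adjusted p up to 0.18). CG7300 fell at both ages as well with a log2 fold change of -1.52 (edgeR adjusted p = 0.015) and -2.79 (edgeR adjusted p = 5.0e-05).

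CR45951 (3L, 21194617 to 21196136) overlaps the end of park, the ubiquitin ligase parkin that marks damaged mitochondria for removal, over 1076 bases. It was lower in the mutant with a log2 fold change of -0.46 (edgeR adjusted p = 0.031) at day 3 and -0.52 (edgeR adjusted p = 0.019) at day 20, and park with a log2 fold change of -0.55 (edgeR adjusted p = 0.0011) and -0.30 (edgeR adjusted p = 0.033). The 3-day call of CR45951 was lost on leaving out any library but 3-day mutant replicate 3 (edgeR adjusted p up to 0.12). At day 20 it was lost without 20-day control replicate 1, 20-day mutant replicate 1 or 20-day mutant replicate 2 (edgeR adjusted p up to 0.086). The remaining 2 of the 11, named after their values were seen, were CR44018, which starts opposite the homeobox gene hth (log2 fold change -0.53, edgeR adjusted p = 0.0076, and -0.36, edgeR adjusted p = 0.047), and CR44046, opposite CG15528 (log2 fold change -0.80, edgeR adjusted p = 0.044, and -1.06, edgeR adjusted p = 0.0085). The 20-day call of CR44018 was lost on leaving out any library but 20-day mutant replicate 1 and 20-day control replicate 1 (edgeR adjusted p up to 0.16) and the 3-day call of CR44046 on leaving out any library but 3-day mutant replicate 2 (edgeR adjusted p up to 0.16).

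In the other direction, 5 antisense RNAs were higher in the mutant at both ages (5.81%, beside 7.48% of all genes), 1 of which, CR43152, was selected through its level in the mutant. CR43906 (X, 258465 to 267253) had 118, 136 and 129 counts in 3-day controls and 425, 362 and 313 in 3-day mutants. The 20-day values were 176, 138 and 145 in controls and 405, 326 and 278 in mutants. Its log2 fold change was 1.57 (SE 0.10, edgeR adjusted p = 8.9e-08) and 1.24 (SE 0.10, edgeR adjusted p = 8.4e-07), with every mutant library above every control library. Of its sense genes, CG13377, which starts opposite CR43906, rose with it, from 8, 17 and 18 counts in 3-day controls to 95, 76 and 93 in 3-day mutants and from 11, 14 and 20 to 77, 65 and 56 at day 20, by 2.68 log2 units (edgeR adjusted p = 1.2e-05) and 2.22 (edgeR adjusted p = 5.0e-05). CG13376, inside the span of CR43906, was not called (log2 fold change -0.091, edgeR adjusted p = 0.88, and -0.32, edgeR adjusted p = 0.54). CR43906 shares exon bases on its own strand with cin.

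CR45209 (3R, 27109329 to 27111033) lies inside gb, genderblind, which encodes a glial transporter that exchanges cystine for glutamate. CR45209 had 87, 196 and 161 counts in 3-day controls and 359, 301 and 370 in 3-day mutants. Counts at day 20 were 28, 71 and 42 in controls and 152, 262 and 214 in mutants. The log2 fold change was 1.29 (SE 0.35, edgeR adjusted p = 0.02) at day 3 and 2.26 (SE 0.40, edgeR adjusted p = 0.0021) at day 20, and the 3-day call was lost on leaving out 3-day control replicate 1, 3-day control replicate 3 or 3-day mutant replicate 3 (edgeR adjusted p up to 0.067). gb was also higher in the mutant, by 0.53 log2 units (edgeR adjusted p = 6.3e-04) at day 3 and 1.54 (edgeR adjusted p = 6.8e-08) at day 20.

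CR45195 (3R, 10876834 to 10877783) lies inside Sodh-2, a sorbitol dehydrogenase gene, and 86.1% of its exon bases are covered by exons on the opposite strand. It had 21, 19 and 22 counts in 3-day controls and 39, 29 and 28 in 3-day mutants. In 20-day brains the counts were 51, 42 and 35 in controls and 105, 101 and 82 in mutants, a log2 fold change of 0.67 (edgeR adjusted p = 0.021) and 1.27 (SE 0.18, edgeR adjusted p = 1.1e-04). Sodh-2 went the other way. It had 435, 343 and 370 counts in 3-day controls against 37, 43 and 34 in 3-day mutants and 568, 519 and 437 in 20-day controls against 75, 62 and 36 in 20-day mutants, with log2 fold changes of -3.28 (SE 0.18, edgeR adjusted p = 2.8e-08) and -3.05 (SE 0.17, edgeR adjusted p = 5.2e-08). The 3-day call of CR45195 was lost on leaving out any library but 3-day mutant replicate 2 and 3-day control replicate 1 (edgeR adjusted p up to 0.079), and DESeq2 did not make it.

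CR44987 (2L, 71039 to 73836) lies between galectin, whose start it overlaps, and dbr, whose end it overlaps. It had 26, 30 and 21 counts in 3-day controls and 59, 36 and 39 in 3-day mutants. The 20-day values were 31, 28 and 30 in controls and 77, 82 and 63 in mutants (log2 fold change 0.83, SE 0.22, edgeR adjusted p = 0.01, and 1.41, SE 0.21, edgeR adjusted p = 1.7e-04). dbr was lower in the mutant with a log2 fold change of -0.49 (edgeR adjusted p = 6.3e-05) and -0.57 (edgeR adjusted p = 1.5e-05), and galectin at day 20 (log2 fold change -0.19, edgeR adjusted p = 0.015) while it was not called at day 3 (log2 fold change 0.057, edgeR adjusted p = 0.44). The 3-day call of CR44987 was lost without 3-day mutant replicate 1 (edgeR adjusted p = 0.057). CR43152 (X, 12973825 to 12974615), at the edge of the selection, had 4, 13 and 15 counts in 3-day controls and 45, 41 and 54 in 3-day mutants. Counts at day 20 were 13, 22 and 21 in controls and 42, 37 and 43 in mutants. It passed the limit of 1 CPM only through the mutant groups, since the mean of the other 15 libraries was 0.587 CPM, so these counts are a description and no fold change or test is given. CG15721, the gene it overlaps, had at most 4 counts in any library.

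Some antisense RNAs were called between genotypes at 1 age only, and a difference between ages is addressed only by the interaction test. CR44065 (2L, 2190191 to 2191272), inside CG10874, had 14, 31 and 3 counts in 20-day controls and 44, 67 and 46 in 20-day mutants, beside 21, 20 and 19 in 3-day controls and 39, 32 and 27 in 3-day mutants. Without both mutant groups its mean was 0.999 CPM, just under the limit of selection, so no fold change or test is given for it. CG10874 was not called at either age. CR43464 (2L, 2000058 to 2003935), inside CG33543, had 35, 96 and 81 counts in 20-day controls and 4, 15 and 17 in 20-day mutants (log2 fold change -2.44, SE 0.65, edgeR adjusted p = 0.016), and 48, 74 and 96 in 3-day controls and 28, 13 and 49 in 3-day mutants (log2 fold change -1.17, edgeR adjusted p = 0.16). Its replicates spread widely, and the call was lost without 20-day mutant replicate 2 (edgeR adjusted p = 0.0503). CG33543 was higher in the mutant at day 3 (log2 fold change 0.51, edgeR adjusted p = 1.9e-04) and not called at day 20 (log2 fold change 0.0039, edgeR adjusted p = 0.97).

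The age by genotype interaction asks whether the mutant's difference from control is the same at day 20 as at day 3. It was called for 10 antisense RNAs, 6 with a higher value at day 20 (6.98%, beside 8.29% of all genes) and 4 with a lower one (4.65%, beside 10.3%). Among the 6, CR44030, at the end of fuss, had 421, 336 and 339 counts in 3-day controls and 326, 285 and 205 in 3-day mutants. In 20-day brains the counts were 354, 300 and 293 in controls and 474, 483 and 349 in mutants. It was lower in the mutant at day 3 (log2 fold change -0.40, edgeR adjusted p = 0.025) and higher at day 20 (log2 fold change 0.56, edgeR adjusted p = 0.0029), with an interaction of 0.96 (SE 0.17, edgeR adjusted p = 0.0022), given as the change in log2 fold change, while fuss had an interaction of -0.28 (edgeR adjusted p = 0.22). The 3-day call was lost without 3-day control replicate 1 or 3-day mutant replicate 3 (edgeR adjusted p up to 0.13).

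CR44137, inside Csk, was also lower at day 3 and higher at day 20 in the mutant. It had 19.3, 17.5 and 19.7 CPM in 3-day controls, 16.2, 14.5 and 16.3 in 3-day mutants, 28.6, 27.9 and 29.5 in 20-day controls and 32.9, 33.9 and 32.3 in 20-day mutants. The log2 difference between genotypes was -0.26 (edgeR adjusted p = 0.014) at day 3 and 0.20 (edgeR adjusted p = 0.039) at day 20, and the interaction was 0.47 (SE 0.10, edgeR adjusted p = 0.0065). The 3-day call was lost without 3-day control replicate 3 or 3-day mutant replicate 2 (edgeR adjusted p up to 0.067) and the 20-day call on leaving out any 1 library (edgeR adjusted p up to 0.12). Csk itself was higher in the mutant at both ages (log2 fold change 0.27, edgeR adjusted p = 0.0014, and 0.65, edgeR adjusted p = 6.8e-07) with an interaction of 0.38 (edgeR adjusted p = 0.0027).

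CR44031 (4, 1027863 to 1029359), which overlaps the end of CG11077, a relative of the mitochondrial membrane protein Mpv17, had 31, 40 and 47 counts in 3-day controls and 35, 26 and 29 in 3-day mutants. The 20-day values were 36, 37 and 50 in controls and 87, 86 and 50 in mutants. It was higher in the mutant at day 20 (log2 fold change 0.93, edgeR adjusted p = 0.0049), not called at day 3 (log2 fold change -0.33, edgeR adjusted p = 0.3), and had an interaction of 1.26 (SE 0.32, edgeR adjusted p = 0.015). CR43957 (4, 56497 to 63124) starts opposite ci, the transcription factor of Hedgehog signalling, and had 111, 146 and 162 counts in 3-day controls and 117, 91 and 99 in 3-day mutants. Counts at day 20 were 123, 160 and 127 in controls and 170, 193 and 163 in mutants (interaction 0.85, SE 0.22, edgeR adjusted p = 0.016). The interaction was 0.58 (edgeR adjusted p = 0.0083) for CR45009 (X, 23007672 to 23009452), at the end of the fucosyltransferase gene FucTC, and 0.74 (edgeR adjusted p = 0.03) for CR44181. The latter was lost on leaving out any library but 3-day control replicate 3, 3-day mutant replicate 3, 20-day control replicate 2, 20-day mutant replicate 2 and 20-day mutant replicate 3 (edgeR adjusted p up to 0.08).

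Among the 4 with a lower value at day 20, CR45126 (4, 459768 to 461413) overlaps the end of Taf3, a subunit of the general transcription factor TFIID. It had 123, 133 and 151 counts in 3-day controls and 162, 136 and 126 in 3-day mutants, which overlapped, but 213, 142 and 154 in 20-day controls and 73, 68 and 42 in 20-day mutants. The log2 difference was 0.11 (edgeR adjusted p = 0.59) at day 3 and -1.38 (edgeR adjusted p = 1.4e-05) at day 20, with an interaction of -1.49 (SE 0.21, edgeR adjusted p = 5.3e-04). Taf3 was higher in the 20-day mutant by 0.21 log2 units (edgeR adjusted p = 0.0053). CR45479 had 403, 489 and 495 counts in 3-day controls and 711, 577 and 613 in 3-day mutants. In 20-day brains the counts were 668, 344 and 439 in controls and 326, 332 and 254 in mutants. It was higher in the mutant at day 3 (log2 fold change 0.51, edgeR adjusted p = 0.032) and lower at day 20 (log2 fold change -0.56, edgeR adjusted p = 0.024), with an interaction of -1.07 (SE 0.23, edgeR adjusted p = 0.0089). The 3-day call was lost on leaving out any library but 3-day mutant replicate 2 (edgeR adjusted p up to 0.11) and the 20-day call on leaving out any library but 20-day control replicate 2 and 20-day control replicate 3 (edgeR adjusted p up to 0.068).

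CR44370 (2R, 15226938 to 15232665), inside Fs, which encodes the activin antagonist follistatin, had 20, 44 and 28 counts in 3-day controls and 67, 74 and 69 in 3-day mutants. The 20-day values were 51, 82 and 29 in controls and 14, 40 and 29 in mutants. Its interaction was -2.11 (SE 0.59, edgeR adjusted p = 0.028), and that call was lost without 3-day control replicate 1, 3-day control replicate 3, 3-day mutant replicate 2 or 3-day mutant replicate 3 (edgeR adjusted p up to 0.073). Fs was called in no comparison of set 1. CR45131 was higher in the mutant at day 3, with 28.2, 29.2 and 29.6 CPM in controls and 41.6, 38.7 and 42.8 in mutants (log2 fold change 0.50, edgeR adjusted p = 1.6e-04), and not called at day 20 (log2 fold change 0.14, edgeR adjusted p = 0.17). Its interaction of -0.36 (edgeR adjusted p = 0.026) was lost without 3-day control replicate 1, 3-day mutant replicate 1, 3-day mutant replicate 3, 20-day control replicate 1 or 20-day mutant replicate 1 (edgeR adjusted p up to 0.064). Of its sense genes, CG43341 was lower in the mutant at day 3 (log2 fold change -0.82, edgeR adjusted p = 0.011).

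Antisense RNAs of the small chromosome 4 recur in these lists. Of its 6, 5 were called between genotypes at day 20, where 40.8% of the 98 chromosome 4 genes tested were called, and 4 in the interaction, beside 28.6% of those genes. The 6 members are too few for the shares to be compared. The 4 in the interaction were CR44030, CR44031, CR43957 and CR45126, and the other one called at day 20 was CR43425, inside the synaptic vesicle priming gene unc-13, with 77, 82 and 72 counts in 20-day controls and 106, 135 and 105 in 20-day mutants (log2 fold change 0.69, edgeR adjusted p = 0.0032). unc-13 was lower in the 20-day mutant (log2 fold change -0.32, edgeR adjusted p = 0.0063).

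**Figure D4:**
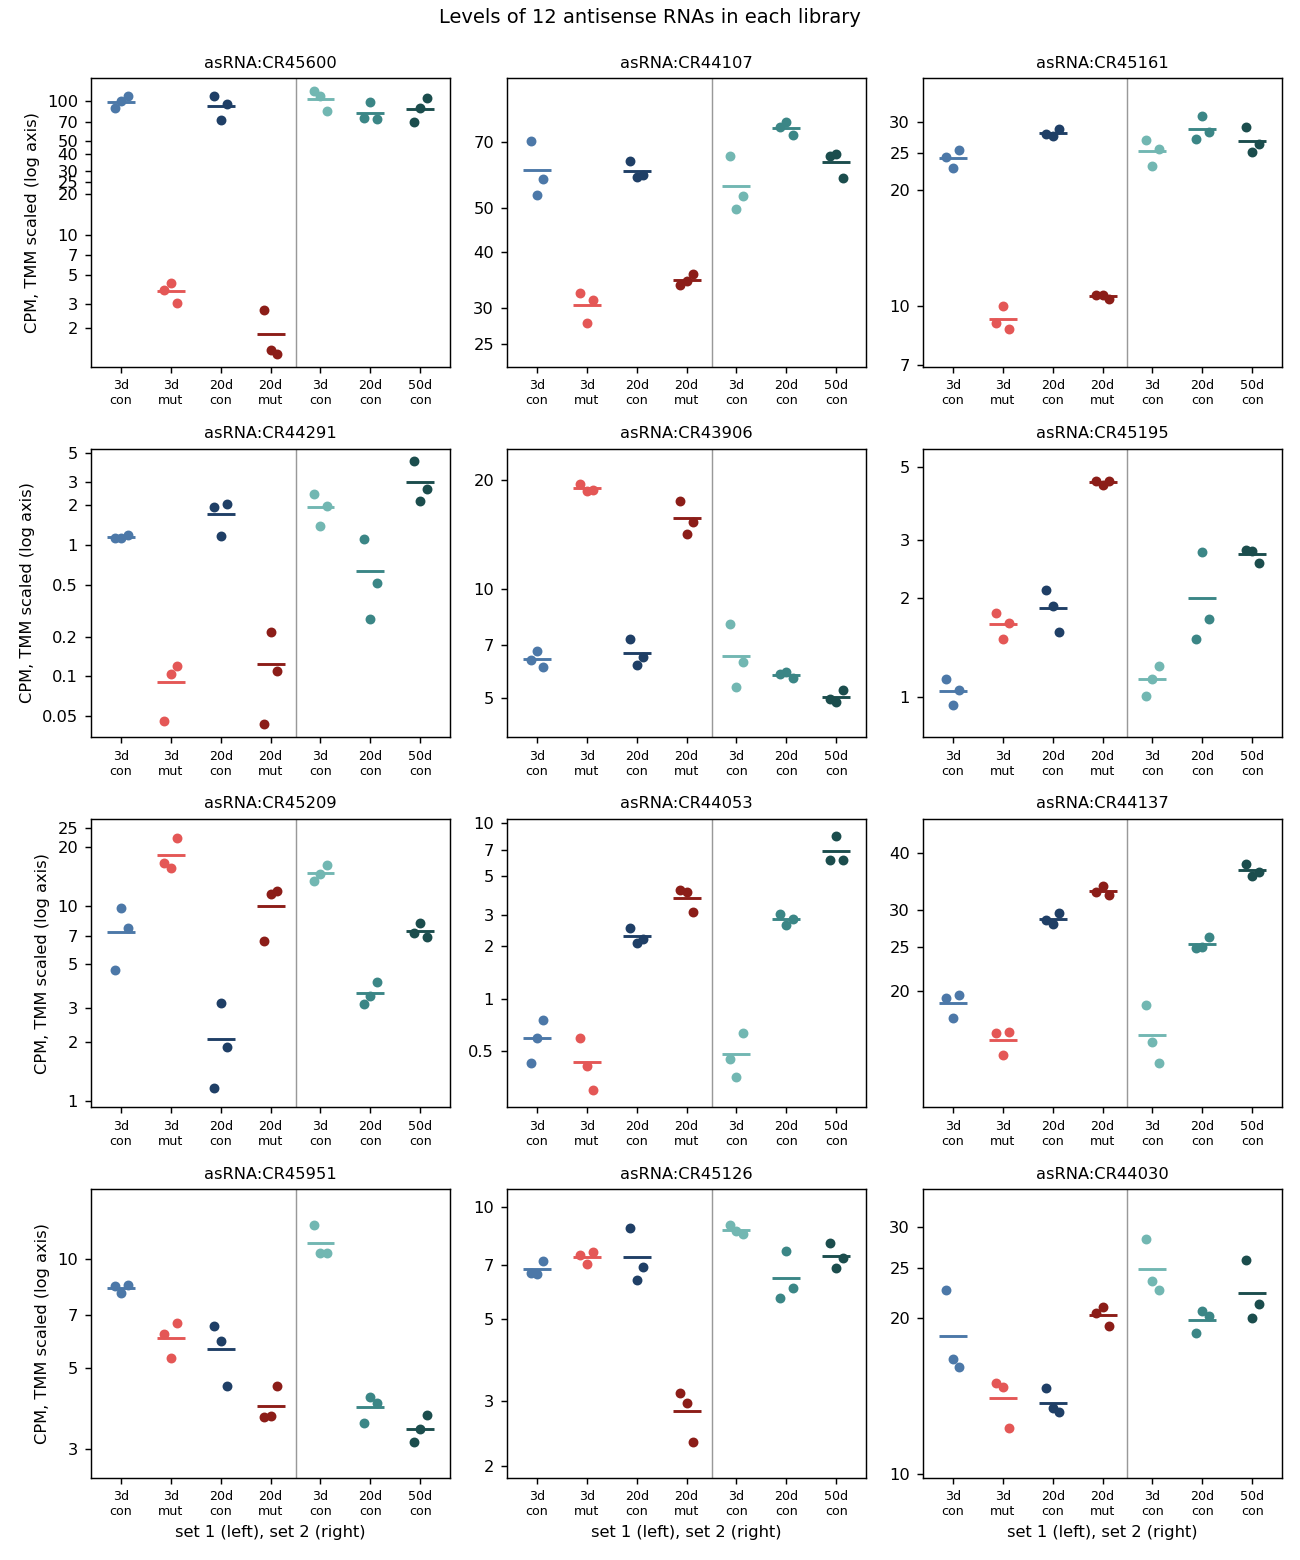
CPM, scaled with TMM factors (log axis), of 12 antisense RNAs in each of the 21 libraries (points), with the group mean as a line; con, control; mut, mutant. CR45600, CR44107, CR45161 and CR44291 are lower in the 6 mutant libraries of set 1, CR43906 is higher there, and CR44053 and CR44137 are higher at older ages in both sets.

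With age in set 1 controls, 9 antisense RNAs were higher at day 20 than at day 3 (10.5%, beside 11.3% of all genes) and 10 were lower (11.6%, beside 13.3%). In mutants, 15 were higher (17.4%, beside 22.8%) and 16 lower (18.6%, beside 23.2%). In the controls of set 2, 10 were higher at day 20 than at day 3 (11.6%, beside 19.3%) and 20 lower (23.3%, beside 19.9%). From day 20 to day 50, 7 were higher, CR44291 and CR45046 among them (8.14%, beside 5.51%) and 1 lower (1.16%, beside 4.21%), and from day 3 to day 50, 15 were higher (17.4%, beside 25.9%) and 19 lower (22.1%, beside 24.9%). The 3 comparisons of set 2 share libraries. Shares called were at or below those of all genes except in set 2. There, falls to day 20 and rises from day 20 to day 50 had larger shares. The 7 rises from day 20 to day 50 include CR44291 and CR45046, and the 15 from day 3 to day 50 include CR45046. Both antisense RNAs passed the limit of 1 CPM only through the day 50 group. The shares of rises to day 50 are therefore not read as a result. Neuron markers moved with age too, from 5245 to 5673 CPM at day 3 to 3707 to 4086 CPM at day 20 and 3553 to 3945 CPM at day 50 in set 2, with 5 of 5 lower at day 20. Photoreceptor markers summed to 36516 to 38646 CPM at day 3, 39382 to 49104 CPM at day 20 and 26947 to 37077 CPM at day 50 there. At day 20 4 of 5 were lower, while ninaE, the main rhodopsin gene, was higher (log2 fold change 0.52, edgeR adjusted p = 0.01). Hemocyte markers summed to 172 to 207 CPM at day 20 and 252 to 290 CPM at day 50, with 3 of 5 called higher at day 50. The part of any of these lists in the results was not tested. In set 1 mutants 5 of 5 neuron markers were lower at day 20. In set 1 controls 1 of 5 was lower, with sums of 4683 to 5160 CPM at day 3 and 4391 to 4809 CPM at day 20.

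Set 1 and set 2 hold separate control libraries, and the change from day 3 to day 20 was called in both for 14 antisense RNAs. None of these went in opposite directions, as did 0.182% of all genes tested in both sets. Higher at day 20 in both were 5 (5.81%, beside 5.51% of all genes), and all 5 were also higher at day 20 in mutants. The matching share in mutants was not taken over all genes, so this overlap is a description only. CR44053 (X, 16806047 to 16809230), which spans ppk28, a sodium channel subunit that senses water in taste neurons, had the largest called rise from day 3 to day 20 in each of the 3 series. It had 8, 12 and 16 counts at day 3 and 61, 46 and 49 at day 20 in set 1 controls. In mutants the counts were 13, 8 and 5 at day 3 against 96, 93 and 56 at day 20. In set 2 they were 18, 12 and 21 at day 3, 97, 86 and 127 at day 20 and 196, 307 and 240 at day 50. No library overlapped between ages in any of these series. The log2 fold change from day 3 to day 20 was 1.91 (SE 0.27, edgeR adjusted p = 2.8e-04) in set 1 controls, 3.06 (SE 0.28, edgeR adjusted p = 1.6e-06) in mutants and 2.55 (SE 0.23, edgeR adjusted p = 8.4e-06) in set 2, and that from day 3 to day 50 was 3.84 (SE 0.23, edgeR adjusted p = 1.5e-07). From day 20 to day 50 it was 1.29 (edgeR adjusted p = 0.0025). ppk28 rose as well, by 0.54 log2 units (edgeR adjusted p = 0.035) in mutants and 0.55 (edgeR adjusted p = 0.033) in set 2 at day 20, and was not called in set 1 controls (log2 fold change 0.25, edgeR adjusted p = 0.37). At day 20 CR44053 was also higher in mutants than in controls (log2 fold change 0.74, edgeR adjusted p = 0.026), a call lost on leaving out any library but 20-day mutant replicate 3 and 20-day control replicate 1 (edgeR adjusted p up to 0.085).

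CR44137 was called in each of the 7 comparisons between groups. In set 2 it had 18.7, 15.5 and 14.0 CPM at day 3, 24.9, 25.0 and 26.3 at day 20 and 37.9, 35.7 and 36.3 at day 50, with no overlap between ages. Its log2 fold change was 0.66 (SE 0.094, edgeR adjusted p = 1.9e-04) at day 20 against day 3, 0.53 (SE 0.092, edgeR adjusted p = 0.0052) at day 50 against day 20 and 1.19 (SE 0.094, edgeR adjusted p = 8.3e-07) at day 50 against day 3. In set 1 it was 0.61 (SE 0.072, edgeR adjusted p = 6.2e-05) in controls and 1.07 (SE 0.072, edgeR adjusted p = 1.2e-07) in mutants. Csk rose as well, by 0.16 log2 units (edgeR adjusted p = 0.032) in set 1 controls, 0.55 (edgeR adjusted p = 1.9e-06) in mutants and 0.39 (edgeR adjusted p = 2.4e-04) at day 50 against day 3.

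CR44690 (X, 2175817 to 2180816) runs across the cytochrome P450 genes Cyp4ae1 and Cyp4d2 and meets CR45479 end to end over 39 bases. In set 2 it rose with age while all 3 fell. CR44690 had 294, 261 and 268 counts at day 3, 452, 395 and 551 at day 20 and 528, 562 and 609 at day 50 in set 2, a log2 fold change of 0.72 (SE 0.089, edgeR adjusted p = 6.6e-05) at day 20 and 1.03 (SE 0.088, edgeR adjusted p = 1.5e-06) at day 50 against day 3. In set 1 it was 0.68 (edgeR adjusted p = 7.7e-04) in controls and 0.90 (edgeR adjusted p = 2.7e-05) in mutants. Cyp4ae1, which starts opposite CR44690, had 603, 523 and 494 counts at day 3, 117, 140 and 199 at day 20 and 85, 91 and 74 at day 50, with log2 fold changes against day 3 of -1.88 (SE 0.13, edgeR adjusted p = 1.7e-06) and -2.70 (SE 0.14, edgeR adjusted p = 5.1e-08). Cyp4d2 was lower at both ages with a log2 fold change of -0.67 (edgeR adjusted p = 2.0e-05) and -0.63 (edgeR adjusted p = 1.2e-05). CR45479 had 1320, 1115 and 1277 counts at day 3, 548, 575 and 729 at day 20 and 537, 527 and 604 at day 50 (log2 fold change -1.05, edgeR adjusted p = 4.0e-06, and -1.17, edgeR adjusted p = 4.4e-07, against day 3), and its own P450 partner Cyp4d14, which starts opposite it, rose by 1.65 log2 units (edgeR adjusted p = 3.2e-05) and 1.62 (edgeR adjusted p = 1.5e-05). Within these 4 overlapping pairs the antisense RNA and its neighbour thus went in opposite directions in set 2. CR45479 was not called with age in set 1 controls (log2 fold change -0.15, edgeR adjusted p = 0.56) and neither was Cyp4d2 (log2 fold change -0.26, edgeR adjusted p = 0.23), while Cyp4ae1 was lower (log2 fold change -1.22, edgeR adjusted p = 5.1e-05) and Cyp4d14 higher (log2 fold change 1.43, edgeR adjusted p = 0.002), so that of the 4 pairs only CR44690 with Cyp4ae1 had both called, in opposite directions, there. From day 20 to day 50, CR44690 was higher by 0.31 log2 units (edgeR adjusted p = 0.04), a call lost on leaving out any library but 20-day control replicate 1 (edgeR adjusted p up to 0.17).

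CR44998 (X, 15334478 to 15335971) and CR45195 were the other 2 that rose in both sets. CR44998 lies inside HDAC6, a cytoplasmic deacetylase that acts on tubulin, and had 75, 85 and 79 counts at day 3 and 181, 146 and 145 at day 20 in set 1 controls. Its log2 fold change at day 20 was 0.77 (SE 0.13, edgeR adjusted p = 9.4e-04) there, 0.94 (edgeR adjusted p = 7.0e-05) in mutants and 0.61 (edgeR adjusted p = 0.01) in set 2, and HDAC6 rose with it by 0.43 log2 units (edgeR adjusted p = 5.4e-05), 0.18 (edgeR adjusted p = 0.0078) and 0.42 (edgeR adjusted p = 1.6e-04). CR45195 rose by 0.83 log2 units (edgeR adjusted p = 0.0083) in set 1 controls, 1.43 (edgeR adjusted p = 2.8e-05) in mutants and 0.82 (edgeR adjusted p = 0.023) in set 2, and by 1.26 log2 units (edgeR adjusted p = 0.0012) at day 50 against day 3. In set 2 the call at day 20 was lost without 3-day control replicate 1 or 20-day control replicate 2 (edgeR adjusted p up to 0.12). Sodh-2 rose in set 2 (log2 fold change 0.72, edgeR adjusted p = 6.6e-04, and 0.66, edgeR adjusted p = 6.8e-04) and was not called with age in set 1 controls (log2 fold change 0.19, edgeR adjusted p = 0.37) or mutants (log2 fold change 0.43, edgeR adjusted p = 0.1).

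CR46093 (3R, 24318816 to 24319782) starts opposite BRWD3, a bromodomain protein gene. It had 17, 20 and 25 counts at day 3, 51, 49 and 64 at day 20 and 82, 94 and 69 at day 50 in set 2, with log2 fold changes against day 3 of 1.34 (SE 0.28, edgeR adjusted p = 0.0025) and 1.96 (SE 0.28, edgeR adjusted p = 9.6e-05). In set 1 it was called in mutants (log2 fold change 1.70, edgeR adjusted p = 0.0025) and not in controls (log2 fold change 0.62, edgeR adjusted p = 0.24), and BRWD3 was not called with age in either set. CR44960 (X, 15082616 to 15083753), which starts opposite CG33178, had 42, 22 and 27 counts at day 3 and 77, 66 and 80 at day 50 (log2 fold change 1.30, SE 0.26, edgeR adjusted p = 0.0011). In set 1 controls it was higher at day 20 by 0.97 log2 units (edgeR adjusted p = 0.042), a call lost without 3-day control replicate 2, 3-day control replicate 3 or 20-day control replicate 1 (edgeR adjusted p up to 0.25) and not made by DESeq2.

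CR44843 (3L, 14560000 to 14560953) spans Lk, which encodes the neuropeptide leucokinin, and shares exon bases on its own strand with CG34039. It had 26, 24 and 20 counts at day 3 and 47, 47 and 55 at day 20 in set 1 controls (log2 fold change 0.88, SE 0.22, edgeR adjusted p = 0.011). That call was lost without 3-day control replicate 3 (edgeR adjusted p = 0.0504), and Lk was not called there (log2 fold change -0.036, edgeR adjusted p = 0.87). CR43480 (X, 23090324 to 23093609), inside CG17162, had 314, 401 and 397 counts at day 3 and 561, 655 and 799 at day 20 in set 2 (log2 fold change 0.80, SE 0.16, edgeR adjusted p = 0.0025), while CG17162 was lower (log2 fold change -0.55, edgeR adjusted p = 0.045). In set 1, where its replicates ranged from 121 to 263 counts in 3-day controls alone, CR43480 was not called with age (log2 fold change -0.021, edgeR adjusted p = 0.98, in controls). In set 2 the top-ranked CR43259 and CR45822 also rose by day 20, by 0.47 log2 units (edgeR adjusted p = 0.0011) and 0.32 (edgeR adjusted p = 0.034), and the latter call was lost on leaving out any library but 3-day control replicate 1 and 3-day control replicate 2 (edgeR adjusted p up to 0.11).

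Lower at day 20 in the controls of both sets were 9 antisense RNAs (10.5%, beside 9.58% of all genes), 6 of which also fell in mutants. Here too the matching share in mutants was not taken over all genes. CR45281 (2R, 9559255 to 9565190), a single exon of 5936 bases that runs across the odorant receptor gene Or45b and the alkaline phosphatase gene Alp6, had the largest called fall at day 50. It had 630, 517 and 553 counts at day 3, 158, 185 and 265 at day 20 and 127, 156 and 220 at day 50, with no overlap between day 3 and either later age, and log2 fold changes of -1.54 (SE 0.13, edgeR adjusted p = 5.7e-06) and -1.78 (SE 0.13, edgeR adjusted p = 5.9e-07). In set 1 it fell by day 20 in mutants (log2 fold change -1.19, SE 0.17, edgeR adjusted p = 6.8e-05) and in controls (log2 fold change -0.60, edgeR adjusted p = 0.016), where the call was lost without 3-day control replicate 3 or 20-day control replicate 1 (edgeR adjusted p up to 0.077). Or45b and Alp6 had 7 to 36 counts per library and were called in none of the comparisons.

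CR45951, at the end of park, had 493, 347 and 343 counts at day 3, 114, 136 and 180 at day 20 and 100, 124 and 144 at day 50 in set 2. It was lower with a log2 fold change of -1.50 (SE 0.13, edgeR adjusted p = 5.8e-06) at day 20 and -1.69 (SE 0.13, edgeR adjusted p = 7.0e-07) at day 50. In set 1 the log2 change by day 20 was -0.56 (edgeR adjusted p = 0.016) in controls and -0.62 (edgeR adjusted p = 0.0052) in mutants, and the former was lost without 20-day control replicate 3 (edgeR adjusted p = 0.066). park was not called at day 20 in set 2 (log2 fold change 0.034, edgeR adjusted p = 0.82) and was lower at day 50 with a log2 fold change of -0.28 (edgeR adjusted p = 0.032).

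CR43426 (3L, 22850111 to 22854434) spans CG32462, which had at most 2 counts in any library. It had 291, 223 and 221 counts at day 3, 88, 105 and 136 at day 20 and 79, 65 and 122 at day 50 (log2 fold change -1.20, SE 0.19, edgeR adjusted p = 3.6e-04, and -1.48, SE 0.19, edgeR adjusted p = 4.1e-05, against day 3), and fell in set 1 with a log2 fold change of -0.62 (edgeR adjusted p = 0.0098) in controls and -1.14 (edgeR adjusted p = 3.9e-05) in mutants. In set 1 controls the call was lost without 3-day control replicate 2 (edgeR adjusted p = 0.051). CR42547 (2R, 21631421 to 21634040), which starts opposite CG15674, had 397, 360 and 333 counts at day 3, 151, 149 and 237 at day 20 and 132, 163 and 160 at day 50. Its log2 fold change was -1.08 (SE 0.11, edgeR adjusted p = 1.9e-05) at day 20 and -1.27 (SE 0.11, edgeR adjusted p = 1.9e-06) at day 50 in set 2, -0.50 (edgeR adjusted p = 0.01) in set 1 controls and -0.77 (edgeR adjusted p = 1.8e-04) in mutants. CR45134, opposite whd, fell in set 2 from 108, 73 and 78 counts at day 3 to 37, 39 and 37 at day 50 (log2 fold change -1.19, SE 0.24, edgeR adjusted p = 0.0011) and was not called with age in set 1 controls (log2 fold change -0.45, edgeR adjusted p = 0.17).

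CR45874 (3L, 9510017 to 9510889) lies inside RpS9, a gene of the small ribosomal subunit, and has 1.14% of its level per kb. It had 165, 142 and 121 counts in 3-day mutants and 106, 78 and 53 in 20-day mutants, and fell with a log2 fold change of -1.02 (SE 0.19, edgeR adjusted p = 5.9e-04), while RpS9 rose by 0.75 log2 units (edgeR adjusted p = 6.5e-06). In set 2 it fell with a log2 fold change of -0.71 (edgeR adjusted p = 0.018) at day 20, and RpS9 rose by 0.43 log2 units (edgeR adjusted p = 0.0025). In set 1 controls CR45874 fell with a log2 fold change of -0.62 (edgeR adjusted p = 0.028), and RpS9 was not called (log2 fold change 0.0068, edgeR adjusted p = 0.97). The call of CR45874 was lost in set 1 controls on leaving out any library but 20-day control replicate 2 and 3-day control replicate 2 (edgeR adjusted p up to 0.14) and in set 2 without 3-day control replicate 2, 20-day control replicate 2 or 20-day control replicate 3 (edgeR adjusted p up to 0.084).

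CR43425, covered wholly by unc-13, fell with age in controls. It had 5.82, 6.15 and 6.54 CPM at day 3 and 3.18, 3.67 and 3.23 at day 20 in set 1 controls (log2 fold change -0.88, SE 0.15, edgeR adjusted p = 0.001), and 5.89, 6.45 and 5.73 CPM at day 3, 4.64, 4.16 and 4.51 at day 20 and 3.38, 3.38 and 3.38 at day 50 in set 2 (log2 fold change -0.44, edgeR adjusted p = 0.015, and -0.83, edgeR adjusted p = 1.7e-04, against day 3). At day 20 in set 2 the call was lost without 3-day control replicate 2 or 20-day control replicate 2 (edgeR adjusted p up to 0.063). unc-13 was not called in set 1 controls (log2 fold change 0.15, edgeR adjusted p = 0.17) and fell by day 20 in set 2 (log2 fold change -0.30, edgeR adjusted p = 0.013). The remaining members of this group were CR44030, CR45209 and CR43468, the last named after its values were seen. CR44030 fell with a log2 fold change of -0.43 (edgeR adjusted p = 0.022) in set 1 and -0.33 (edgeR adjusted p = 0.03) in set 2, the first lost without 3-day control replicate 1 or 20-day control replicate 3 (edgeR adjusted p up to 0.099) and the second on leaving out any library but 3-day control replicate 2 and 3-day control replicate 3 (edgeR adjusted p up to 0.16). CR43468, which spans Lfg and overlaps the end of the glutamate receptor gene Nmda1, fell with a log2 fold change of -0.52 (edgeR adjusted p = 0.047) in set 1 and -0.66 (edgeR adjusted p = 8.6e-04) in set 2, and the former was lost on leaving out any library but 20-day control replicate 2 and 3-day control replicate 1 (edgeR adjusted p up to 0.16).

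CR45209, inside gb, fell by day 20 in both sets and stood higher again at day 50. It had 529, 484 and 531 counts at day 3, 101, 112 and 182 at day 20 and 232, 297 and 266 at day 50 in set 2. The log2 fold change was -2.04 (SE 0.13, edgeR adjusted p = 7.7e-07) at day 20 against day 3, 1.06 (SE 0.13, edgeR adjusted p = 5.5e-04) at day 50 against day 20 and -0.97 (SE 0.12, edgeR adjusted p = 3.0e-05) at day 50 against day 3, 3 comparisons that share libraries. In set 1 controls it was -1.83 (SE 0.41, edgeR adjusted p = 0.011). gb fell with a log2 fold change of -0.42 (edgeR adjusted p = 0.0055) in set 1 controls and -0.68 (edgeR adjusted p = 1.8e-05) in set 2 at day 20, and was not called from day 20 to day 50 (log2 fold change -0.072, edgeR adjusted p = 0.6). In mutants CR45209 was not called with age (log2 fold change -0.87, edgeR adjusted p = 0.065), and gb rose (log2 fold change 0.59, edgeR adjusted p = 1.4e-04).

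CR44291 was also lowest at day 20 in set 2, with 97, 47 and 65 counts at day 3, 36, 9 and 23 at day 20 and 138, 78 and 103 at day 50. It fell with a log2 fold change of -1.62 (SE 0.45, edgeR adjusted p = 0.015) at day 20 against day 3, a call lost without 3-day control replicate 1 or 20-day control replicate 3 (edgeR adjusted p up to 0.062). CR44291 passed the limit of 1 CPM only through the day 50 group, without which its mean was 0.939 CPM, so its higher level at day 50 is a description, given without a test. In set 1 controls CR44291 had 21, 23 and 25 counts at day 3 and 47, 26 and 46 at day 20 and was not called (log2 fold change 0.58, edgeR adjusted p = 0.21).

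From day 20 to day 50, CR45046 (3R, 21878672 to 21884101), which runs across CG31465 and P5CDh2, stood higher at day 50. It had 39, 37 and 42 counts at day 3, 27, 50 and 47 at day 20 and 151, 75 and 141 at day 50. It also passed the limit of 1 CPM only through the day 50 group, without which its mean was 0.919 CPM, so no fold change or test is given. It shares exon bases on its own strand with CG34148 and fit, so its counts are uncertain, and its sense genes had 2 to 29 counts in set 2. CR45009 was the one that fell, from 442, 408 and 582 counts at day 20 to 342, 338 and 414 at day 50 (log2 fold change -0.35, SE 0.088, edgeR adjusted p = 0.026), a call lost on leaving out 20-day control replicate 1, 20-day control replicate 3 or 50-day control replicate 2 (edgeR adjusted p up to 0.088). The number called from day 20 to day 50 depended on the libraries kept: without 20-day control replicate 3, 4 antisense RNAs were called in place of 8. The share of all genes called fell in that fit too, from 9.72% to 5.27%.

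In mutants, the age comparison also called CR45126, which fell from 162, 136 and 126 counts at day 3 to 73, 68 and 42 at day 20 (log2 fold change -1.38, SE 0.15, edgeR adjusted p = 8.2e-06), and CR45479 (log2 fold change -1.22, SE 0.17, edgeR adjusted p = 1.1e-04). CR44370 fell with a log2 fold change of -1.49 (edgeR adjusted p = 0.012) and CR44031 rose by 1.13 log2 units (edgeR adjusted p = 0.001). CR45121 (3L, 9695043 to 9695650), inside Prps, which makes the ribose phosphate precursor of nucleotides, had 42, 21 and 16 counts at day 3 and 10, 14 and 14 at day 20 in mutants (log2 fold change -1.16, SE 0.37, edgeR adjusted p = 0.021). Its call was lost without 3-day mutant replicate 1, 20-day mutant replicate 1 or 20-day mutant replicate 2 (edgeR adjusted p up to 0.14), and Prps was not called (log2 fold change 0.25, edgeR adjusted p = 0.26). CR45600 was lower in 20-day mutants than in 3-day mutants with a log2 fold change of -1.05 (edgeR adjusted p = 0.019), a call lost on leaving out any library but 20-day mutant replicate 1 and 3-day mutant replicate 3 (edgeR adjusted p up to 0.07).

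Across all pairs of an antisense RNA and a tested sense gene, calls of the partners in the same comparison were tallied. Between genotypes, both were called in the same direction in 5 of 89 pairs at day 3 and in 9 at day 20, and in opposite directions in 6 at each age, while only the antisense RNA was called in 15 and 22 pairs and only the sense gene in 23 and 14. With age, both went the same way in 4 pairs in set 1 controls, 8 in mutants, 11 of 91 at day 20 against day 3 in set 2 and 13 at day 50 against day 3. They went opposite ways in 3, 12, 10 and 12 pairs. From day 20 to day 50, 0 pairs were called the same way and 1 in opposite ways, and in the interaction 1 and 0. Joint calls were not tallied for pairs of unrelated genes, so these numbers are not read as a relation between partners. Of 86 sense genes tested, 19.8% were higher and 18.6% lower in the 3-day mutant, beside 16.5% and 15.0% of all genes. In the 20-day mutant the shares were 14.0% and 18.6%, beside 16.6% and 15.4%. With age they were 17.4% and 10.5% in set 1 controls, beside 11.3% and 13.3%, and 29.1% and 23.3% in mutants, beside 22.8% and 23.2%. At day 20 in set 2, 29.5% and 22.7% of 88 sense genes were called, beside 19.3% and 19.9%. At day 50 against day 3 the shares were 34.1% and 25.0%, beside 25.9% and 24.9%. From day 20 to day 50 they were 7.95% and 3.41%, beside 5.51% and 4.21%. In the interaction they were 10.5% and 16.3%, beside 8.29% and 10.3%. The plot of pairs shows both kinds, since at day 20 CR45209 and gb were both higher in the mutant while CR45195 was higher and Sodh-2 lower.

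**Figure D5:**
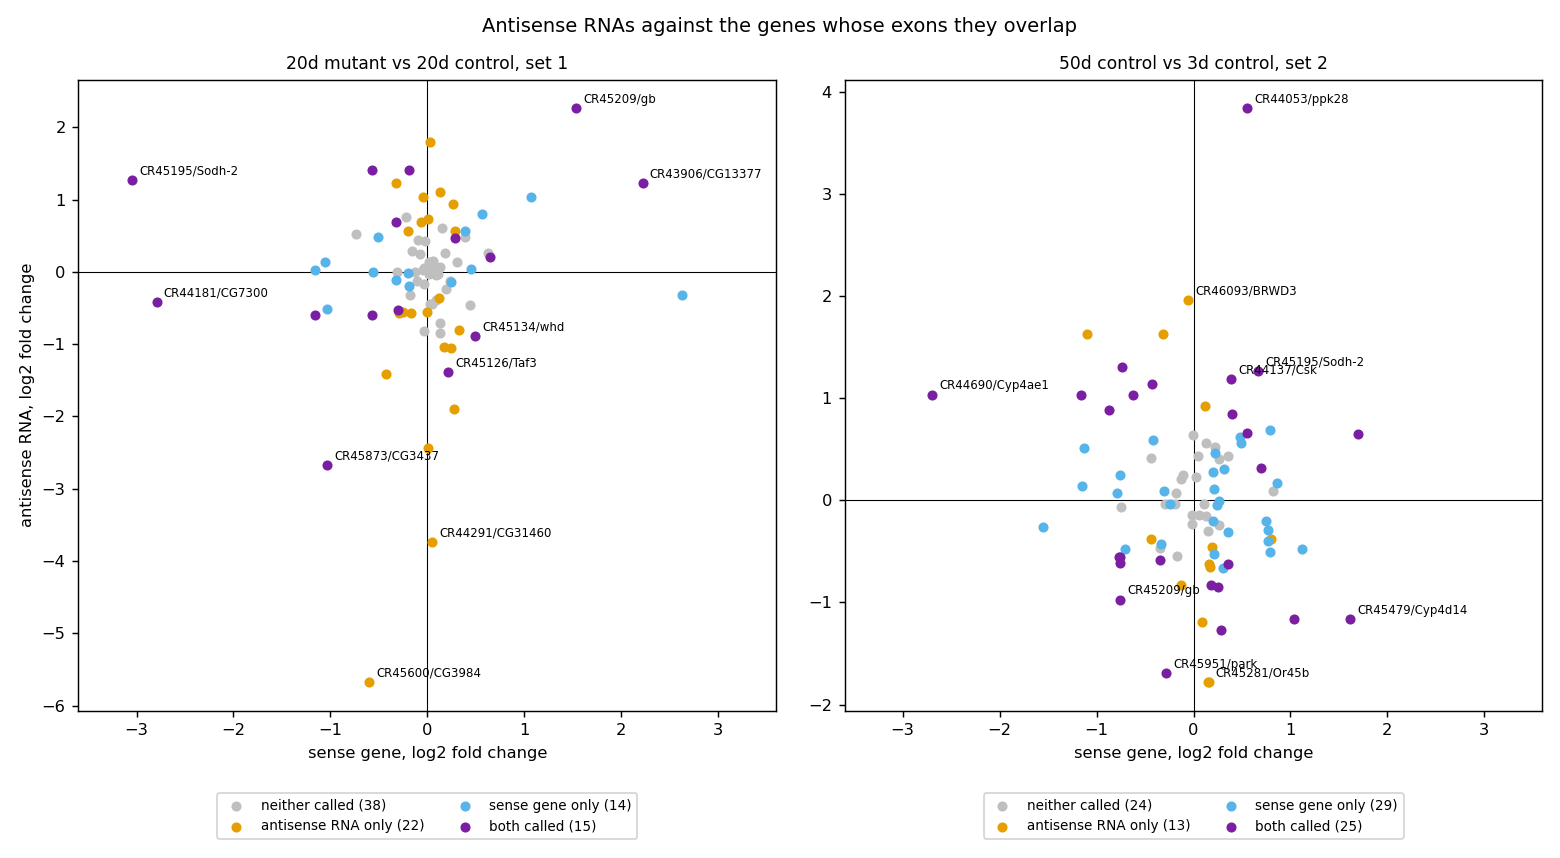
Log2 fold change of the antisense RNA (vertical) against that of its sense gene (horizontal), 1 point per pair, for 20-day mutants against 20-day controls (left) and day 50 against 3-day controls (right), coloured by which of the pair was called at an adjusted p under 0.05. At day 20, 22 pairs had only the antisense RNA called, 14 only the sense gene and 15 both.

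Together, the 86 antisense RNAs took a small share of all counts. In set 1 it was 0.0597% ± 0.0016 in 3-day controls, 0.0469% ± 0.0013 in 3-day mutants, 0.0631% ± 0.0053 in 20-day controls and 0.0503% ± 0.0011 in 20-day mutants (SD, n = 3). Without CR45600 the shares were 0.0501%, 0.0466%, 0.0532% and 0.0501%. In set 2 the share was 0.0622% at day 3, 0.0615% at day 20 and 0.0656% at day 50, so that the mutant groups had the lowest shares and CR45600 made up most of that gap.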

How the data were processed

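PolyA-selected RNA of 20 male brains per replicate was sequenced as stranded libraries. The authors aligned reads with HISAT2, counted them per gene with HTSeq and deposited 1 table of whole-number counts for all 21 libraries. They tested with DESeq2 themselves. Versions and the strand setting of the counting are not given in the sources used here. The count table was taken as deposited, and symbols were read from its gene column. Positions came from Ensembl release 115 (build BDGP6.54), since the table carries no coordinates. Its release differs from those the sources name for alignment and counting.

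Members and gene lists were chosen with earlier results of these data known. Samples were grouped by their labels, and sets were fitted separately with edgeR 4.0.16 in R 4.3.3 (filterByExpr with a minimum count of 10, TMM scaling, robust quasi-likelihood fit, adjusted p threshold 0.05). The standard error is the log2 fold change over the square root of F. CPM per library uses TMM-scaled totals. Named were the 10 highest by mean CPM and, per comparison, up to 5 rises and 5 falls with the largest log2 fold change among called antisense RNAs whose groups did not overlap (for the interaction, among those called), with their sense genes. Alternatives were DESeq2 1.42.0, RLE scaling, other filters, fits of only the groups compared, a replicate block and each library left out. Where a group had 3 or fewer counts per library, folds were computed against that floor. Scripts were tested on simulated data. Python 3.11.15 with pandas 2.3.3 and matplotlib 3.10.9 was used for tables and figures.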

Additional observations from a re-analysis of the deposited data

Results flagged for a closer look

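The difference between mutant and control brains changed between day 3 and day 20 for 10 antisense RNAs by edgeR's interaction term, and each is given here as the log2 difference at day 20 minus that at day 3. It was above 0 for CR44031 (1.26), CR44030 (0.96), CR43957 (0.85), CR44181 (0.74), CR45009 (0.58) and CR44137 (0.47). It was below 0 for CR44370 (-2.11), CR45126 (-1.49), CR45479 (-1.07) and CR45131 (-0.36). Neuron markers also changed by this term, with 4 of 5 called lower, and their part in these values was not tested.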

How the results depend on the processing

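Of 189 calls of antisense RNAs over the 8 comparisons, 112 held under every alternative run, 77 were lost in at least 1 and 0 changed direction. Counts of called antisense RNAs with 1 library left out were 16 to 20 for 3-day mutants against controls, 23 to 28 for 20-day mutants against controls, 14 to 19 for age in set 1 controls, 22 to 27 for age in mutants, 7 to 11 for the interaction, 22 to 28 for day 20 against day 3 in set 2, 4 to 6 for day 50 against day 20, and 27 to 30 for day 50 against day 3. The lowest of these for day 50 against day 20, 4 in place of 8, came without 20-day control replicate 3. In that fit the share of all genes called also fell, from 9.72% to 5.27%. DESeq2 called 22, 31, 17, 28, 11, 29, 8 and 31 in the same order. A replicate block, which pairs libraries by their numbers, gave 24, 32, 19, 34, 10, 29, 8 and 36 in place of 24, 33, 19, 31, 10, 30, 8 and 34, and the correlations of same-numbered libraries ran from -0.162 to 0.332, so the numbers were not taken to pair the samples. With 3 replicates a group, antisense RNAs near 1 CPM have few counts per library, so differences that were not called are not shown to be absent. Counts of overlapping genes depend on a strand setting that is not given in the sources used here, and positions come from another annotation release than the counts. Set 1 and set 2 were fitted separately, so levels are set side by side across them without a test.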
